A study of Mus musculus with 8 samples.

Results

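The chromatin around the genes of 10 activator protein 1 (AP-1) factors was examined in FAIRE-seq peak lists of mouse mammary gland epithelial cells. The genes were *Fos*, *Fosb*, *Fosl1* and *Fosl2* of the Fos family, *Jun*, *Junb* and *Jund* of the Jun family, and the partner genes *Atf3*, *Batf* and *Maff*. A locus was the annotated gene span with 20 kb on each side. Of 129466 peaks in 8 lists, 211 overlapped the 10 loci. After the peaks of all lists were merged, these made 52 of 37230 accessible chromatin regions. A region was an own promoter region when its midpoint lay within 2 kb of an annotated start site of the gene itself, which held for 16 regions. A further 11 lay within 2 kb of a start site of a neighbouring gene, and the remaining 25 were flanking regions, the class in which enhancers would fall. Distances below are from the nearest start site of the named gene.

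FAIRE-seq (formaldehyde-assisted isolation of regulatory elements with sequencing) enriches the DNA that is not crosslinked to protein, so that a FAIRE peak marks a site of accessible chromatin. EpH4 is an epithelial line from the mouse mammary gland, and EpRas is its derivative transformed with an active H-Ras. Each line was either left untreated or given 1 ng/ml TGF-β3 over 8 days, and each of the 4 groups had 2 libraries, which the study calls biological replicates. EpH4 cells were grown in more serum than EpRas cells, so Ras and serum cannot be told apart in any comparison of the lines, and each line stands for 1 derivation. The study asked how Ras and TGF-β alter accessible chromatin on the way to epithelial-mesenchymal transition (EMT).

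AP-1 is a dimer of basic leucine zipper proteins. Fos proteins bind DNA only together with a partner, mostly a Jun protein, whereas Jun proteins also pair with each other. Many of the genes are immediate-early genes, transcribed within minutes of a growth factor signal through kinases downstream of Ras, and their dimers bind the letters TGACTCA and its reverse complement TGAGTCA, a sequence common in enhancers of epithelial cells.

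The lists held 10821 to 27337 peaks, and the shortest was EpH4 with TGF-β replicate 2 and the longest EpRas with TGF-β replicate 1. They give no read counts, so depth is unknown, and a site that missed the authors' limit cannot be told from a closed one. Nor can more cells with an open site be told from a more open site in each cell, since the cells were measured in bulk. The score that came with each peak had no stated unit and was used as a percentile within its own list. There 100 is the top of the list and 0 stands for not called. An alternative with a stricter score limit used the raw score across lists. The comparison was repeated with the 10821 top-scored peaks of each list, called lists of equal length here. Promoter peaks at the epithelial genes *Cdh1*, *Krt8* and *Krt18* were called in 4, 5 and 3 of 8 libraries, and at *Epcam* in 0.

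The AP-1 loci held many accessible regions. Averaged over the 8 libraries, the *Jund* locus had 11.1 peaks per 100 kb, *Junb* 9.61, *Fosl1* 8.78 and *Fosb* 8.18. In that order, these densities were higher than those of 99.7%, 99.4%, 99.1% and 98.7% of 21951 protein-coding gene loci defined in the same way. *Maff* (4.77 peaks per 100 kb), *Jun* (4.34), *Atf3* (2.99), *Fos* (2.59) and *Fosl2* (2.01) came below them, and the lowest of these was still higher than 71.4% of gene loci. The median of the 10 loci was 4.55 peaks per 100 kb against 0.851 for all gene loci. Promoter regions of neighbouring genes count in these densities. They were 3 of 9 regions at *Junb* and at *Fosl1*, 1 of 7 at *Fosb* and 1 of 6 at *Jund*. The gene loci were not matched for the number of genes nearby, and its part in the ranking was not tested. *Batf*, which encodes a partner best known from lymphocytes, was the exception with no peak in any list, as for 28.2% of gene loci. *Batf* and *Fos* lie on the same chromosome, at chr12:85686669-85709087 and chr12:85473890-85477273, and their loci do not overlap.

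A minority of the 52 regions was shared by every library. Regions called in all 8 libraries numbered 8 (15.4%), where this held for 11.4% of all regions. They were the *Fosl2* promoter, an *Atf3* promoter, 2 flanking regions of *Fosl1*, and promoters of the neighbouring genes *Rnaseh2a*, *Hook2*, *Iqcn* and *Pla2g6*. By class, these were 12.5% of the own promoter regions and 36.4% of the neighbour promoter regions, against 17.9% of all promoter regions. Of the flanking regions they were 8.0%, against 8.43% of all distal regions. At the other end, 12 regions (23.1%) were called in 1 library alone, against 31.6% of all regions. The median score percentile, averaged over the libraries that called a region, was 53.8 for the own promoter regions and 39.6 for the flanking regions. The same medians over all promoter and all distal regions were 45.5 and 36.6.

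**Figure D1:**
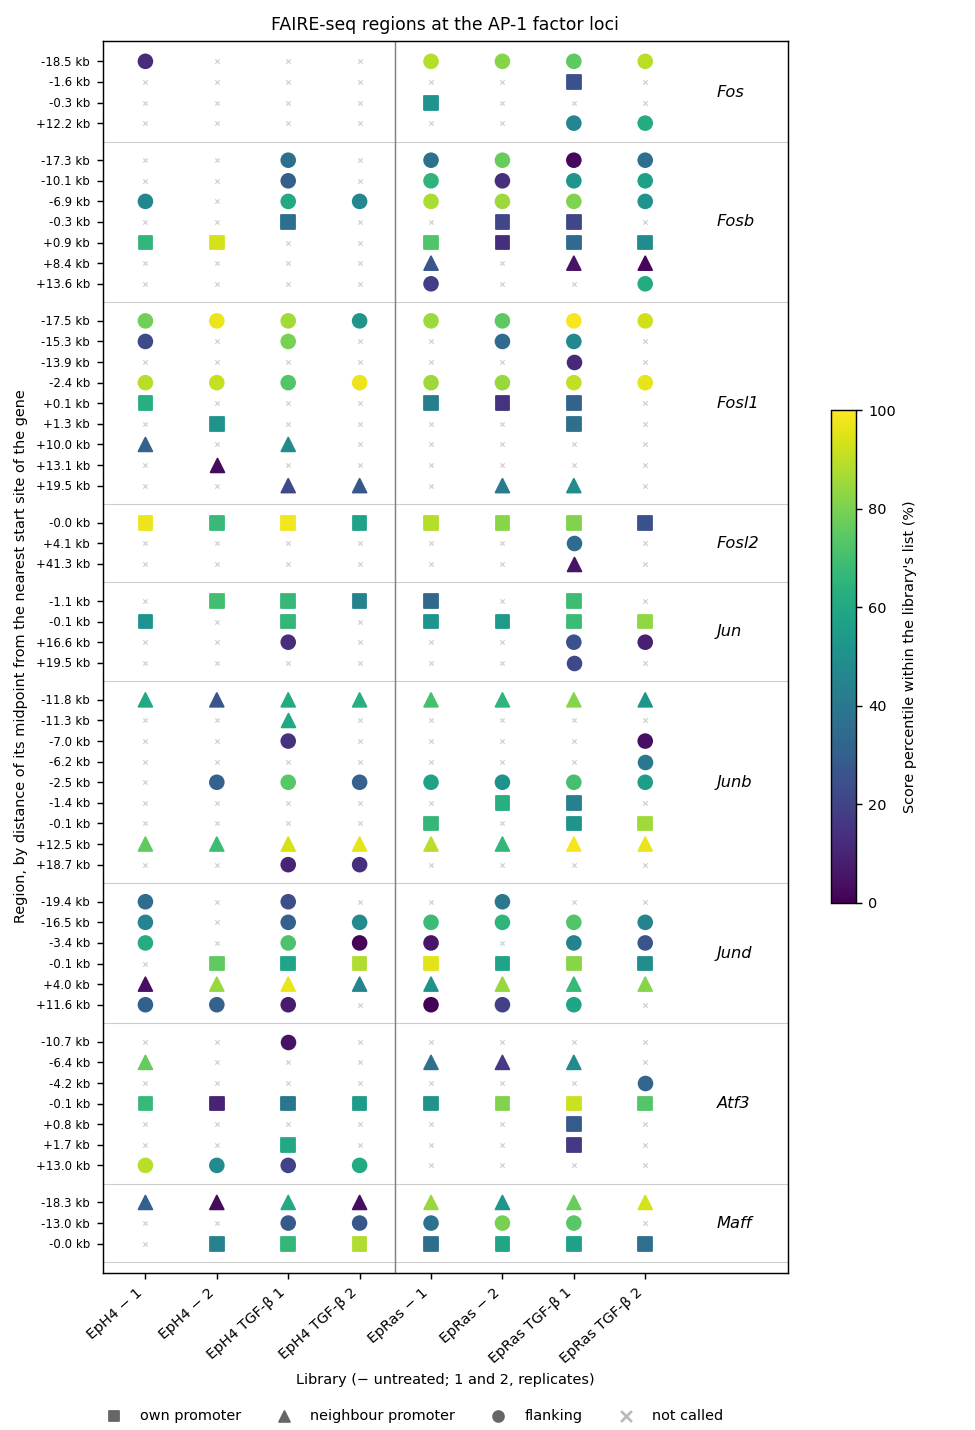
Score percentile of each of the 52 regions (rows, grouped by gene and ordered by distance from the nearest start site in kb) in the 8 libraries (columns). Squares are own promoter regions, triangles are promoter regions of neighbouring genes, circles are flanking regions, colour is the score percentile within the library's list, and grey crosses mark libraries in which a region was not called. The *Fos* region 18.5 kb upstream is called in 4 EpRas libraries and 1 EpH4 library, and the *Atf3* region at 13.0 kb in 4 EpH4 libraries and in 0 EpRas libraries.

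*Fos* encodes the founding member of the family, a short-lived partner of Jun proteins. Its promoter was mostly not called. The region 0.309 kb upstream of the start site was called in EpRas untreated replicate 1 at the 51.8th percentile and in no other library, and a region 1.62 kb upstream in EpRas with TGF-β replicate 1 at the 24.9th percentile. Neither was called in EpH4. The *Fosb* gene, whose product also pairs with Jun, had 2 own promoter regions. The one 0.332 kb upstream was called in 3 libraries, EpH4 with TGF-β replicate 1 (36.6), EpRas untreated replicate 2 (21.3) and EpRas with TGF-β replicate 1 (21.4).

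At *Junb*, which encodes a Jun protein often described as a weaker activator than Jun, the 2 own promoter regions were called in EpRas libraries alone. The one 0.064 kb upstream of the start site had percentiles of 66.6 in EpRas untreated replicate 1, 51.2 and 85.8 with TGF-β, and was not called in EpRas untreated replicate 2. The one 1.4 kb upstream had 63.2 in EpRas untreated replicate 2 and 43.3 in EpRas with TGF-β replicate 1. In the lists of equal length they were called in 2 and 1 EpRas libraries, and EpRas with TGF-β replicate 1 had neither. Neither region separated the lines by score in the full lists (exact permutation p = 0.143 and 0.429). Of all promoter regions, 51.4% were called in more EpRas than EpH4 libraries in the full lists.

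One region of each of these 3 promoters held a CArG box, the sequence that serum response factor binds and through which *Fos* is known to respond to serum. A CArG box was found in 3 of the 16 own promoter regions (18.8%) and in 1.56% of all promoter regions, in windows of 300 bp around each midpoint and on either strand. The windows are printed from the + strand of GRCm38 to show the box, in capitals, beside its surroundings.
Fos promoter, chr12:85473431-85473730: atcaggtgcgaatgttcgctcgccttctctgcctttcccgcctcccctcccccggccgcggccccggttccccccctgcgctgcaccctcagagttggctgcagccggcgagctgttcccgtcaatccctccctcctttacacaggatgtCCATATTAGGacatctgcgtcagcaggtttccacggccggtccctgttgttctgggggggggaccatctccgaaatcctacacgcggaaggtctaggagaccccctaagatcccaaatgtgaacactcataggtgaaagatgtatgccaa
Fosb promoter, chr7:19310233-19310532: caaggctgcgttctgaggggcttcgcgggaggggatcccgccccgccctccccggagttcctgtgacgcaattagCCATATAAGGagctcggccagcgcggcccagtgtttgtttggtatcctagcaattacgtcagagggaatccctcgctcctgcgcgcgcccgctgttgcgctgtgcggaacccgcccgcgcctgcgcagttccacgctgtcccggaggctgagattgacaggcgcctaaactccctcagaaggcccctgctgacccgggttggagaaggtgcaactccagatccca
Junb promoter, chr8:84979970-84980269: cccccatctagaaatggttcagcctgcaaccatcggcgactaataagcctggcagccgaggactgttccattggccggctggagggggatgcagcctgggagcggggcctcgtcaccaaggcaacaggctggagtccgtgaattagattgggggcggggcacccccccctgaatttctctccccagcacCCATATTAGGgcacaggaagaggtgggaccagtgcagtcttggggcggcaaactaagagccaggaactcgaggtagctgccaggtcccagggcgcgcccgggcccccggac
The *Fos* and *Junb* boxes were spelled alike, ccatattagg, and the *Fosb* box differed in its inner letters. Regions with the box were called in 1, 3 and 2 of 8 libraries for *Fos*, *Fosb* and *Junb*, and in 1, 0 and 1 in the lists of equal length.

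The other own promoter regions were called in 1 to 8 libraries. *Fosl2* encodes Fra-2, a longer-lived Fos protein, and its start site (chr5:32135616-32135959) was called in every library, with percentiles of 96.9 and 67.2 in untreated EpH4, 98.1 and 57.7 in EpH4 with TGF-β, 88.9 and 82.4 in untreated EpRas, and 81.2 and 24.7 in EpRas with TGF-β. The ranges of the lines and of the treatments overlapped. The *Atf3* promoter region was also called in all 8 libraries, at chr1:191183155-191183768, which is the inner of the annotated *Atf3* start sites. *Atf3* encodes a stress-induced factor that can repress as well as activate. Its percentiles were 67.5, 9.64, 38.9 and 54.7 in EpH4 and 51.4, 81.0, 92.1 and 73.2 in EpRas, untreated libraries first, so the highest 3 values belonged to EpRas libraries.

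*Jun* itself, the main partner of Fos proteins, had 2 own promoter regions. The one at the start site was called in 6 libraries, at 51.6 in EpH4 untreated replicate 1, 66.1 in EpH4 with TGF-β replicate 1, and 51.8, 53.7, 68.1 and 83.5 in the 4 EpRas libraries. The 2 libraries without it were replicate 2 of each EpH4 group. Those 2 libraries had the neighbouring region 1.12 kb upstream instead, at 69.6 and 44.7, so every library had at least 1 *Jun* promoter region.

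The promoters of *Jund* and *Maff* were each called in 7 libraries. JunD is expressed more evenly than the other Jun proteins, and MafF is a small Maf protein without an activation domain. The library without a call was EpH4 untreated replicate 1 in both cases. The percentiles ran from 48.7 to 95.4 at *Jund* and from 35.2 to 88.1 at *Maff* where called. Both windows held a cyclic AMP response element (CRE, TGACGTCA), present in 3.48% of all promoter regions. *Fosl1* encodes Fra-1, an AP-1 subunit often abundant in Ras-transformed and mesenchymal cells, and its promoter stood apart from the flanking regions beside it. The region at its start site was called in 4 libraries, at 62.6 in EpH4 untreated replicate 1 and at 42.7, 14.7 and 31.3 in 3 EpRas libraries. A region 1.29 kb inside the gene was called in 2 libraries, 1 of each line. The remaining own promoter regions, at 0.894 kb inside *Fosb* and at 0.777 and 1.74 kb inside *Atf3*, were called in 6, 1 and 2 libraries.

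Among the flanking regions, *Fosl1* had the highest scored. The region 2.42 kb upstream of its start site (chr19:5444958-5445298) had percentiles of 89.1, 91.1, 73.0 and 96.9 in EpH4 and 85.5, 84.4, 90.5 and 96.3 in EpRas. A region 17.5 kb upstream (chr19:5429815-5430285) had 78.4, 97.1, 86.2 and 52.0 in EpH4 and 84.8, 75.1, 98.9 and 92.6 in EpRas. The lines overlapped at both, and both regions were called with or without H-Ras and with or without TGF-β. *Junb* and *Jund* had flanking regions called in 7 libraries each, 2.5 kb and 16.5 kb upstream, missing in EpH4 untreated replicate 1 and EpH4 untreated replicate 2 respectively. *Fosl2* and *Jun* had only weak ones, of which the highest, 4.14 kb inside *Fosl2*, stood at the 34.4th percentile in its single library.

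The AP-1 letters TGACTCA or TGAGTCA stood in the windows of 11 of the 25 flanking regions (44.0%), beside 44.2% of all distal regions. Of the own promoter regions 3 of 16 had them (18.8%), against 14.3% of all promoter regions. The flanking windows were richer in G and C, with 57.1% on average against 46.4% in all distal regions. Windows of flanking regions that held the letters are printed to show them in capitals, again from the + strand of GRCm38.
Fosl1 upstream region, chr19:5429900-5430199: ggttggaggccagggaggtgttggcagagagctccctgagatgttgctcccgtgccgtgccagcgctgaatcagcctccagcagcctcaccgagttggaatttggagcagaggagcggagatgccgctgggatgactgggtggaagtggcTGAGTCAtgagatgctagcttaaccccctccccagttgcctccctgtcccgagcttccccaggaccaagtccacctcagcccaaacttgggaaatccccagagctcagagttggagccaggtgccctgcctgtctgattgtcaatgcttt
Fosb upstream region, nearer, chr7:19316764-19317063: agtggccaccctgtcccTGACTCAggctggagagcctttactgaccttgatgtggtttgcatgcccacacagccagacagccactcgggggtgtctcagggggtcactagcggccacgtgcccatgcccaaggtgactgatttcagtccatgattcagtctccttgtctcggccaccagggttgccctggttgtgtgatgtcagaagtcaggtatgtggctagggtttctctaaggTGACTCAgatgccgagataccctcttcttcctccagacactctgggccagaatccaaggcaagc
Fosb upstream region, farther, chr7:19327171-19327470: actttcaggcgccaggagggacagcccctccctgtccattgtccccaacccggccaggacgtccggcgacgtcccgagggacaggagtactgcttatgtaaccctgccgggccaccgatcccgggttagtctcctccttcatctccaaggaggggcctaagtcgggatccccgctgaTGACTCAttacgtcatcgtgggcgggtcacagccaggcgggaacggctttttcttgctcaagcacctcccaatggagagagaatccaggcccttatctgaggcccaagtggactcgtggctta
Junb upstream region, chr8:84981072-84981371: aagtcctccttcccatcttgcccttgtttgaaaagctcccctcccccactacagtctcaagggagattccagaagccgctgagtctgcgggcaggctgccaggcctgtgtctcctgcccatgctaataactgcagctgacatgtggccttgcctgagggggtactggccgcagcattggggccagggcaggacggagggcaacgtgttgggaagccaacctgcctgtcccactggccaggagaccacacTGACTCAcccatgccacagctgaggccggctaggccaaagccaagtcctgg
Maff upstream region, chr15:79333426-79333725: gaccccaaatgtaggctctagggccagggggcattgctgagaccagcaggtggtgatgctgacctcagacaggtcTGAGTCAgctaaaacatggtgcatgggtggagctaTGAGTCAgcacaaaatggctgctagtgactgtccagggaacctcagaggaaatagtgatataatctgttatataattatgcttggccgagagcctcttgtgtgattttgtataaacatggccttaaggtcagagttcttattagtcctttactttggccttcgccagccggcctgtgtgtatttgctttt
These regions lie within 20 kb of *Fosl1*, *Fosb*, *Junb* and *Maff*, whose products bind such letters as part of a dimer. They were assigned to these genes by position alone. The nearest protein-coding start site is that of *AI837181* for the *Fosl1* window and of *Pla2g6* for the *Maff* window. The farther *Fosb* window lies in an intron of *D830036C21Rik*. The match is of letters alone, and binding was not measured here. In the promoter entries of RefSeq for GRCm38, which run from 250 bases before to 50 after a start site, 9 of the 10 genes had 11 entries, of which 0 held the AP-1 letters (5.2% of all entries), 0 the CArG box (1.63%) and 1, for *Maff*, the CRE (1.79%). The CArG boxes printed above for the *Fos*, *Fosb* and *Junb* promoters lie more than 250 bases before the annotated gene start, outside the reach of such entries. The palindromic Smad letters GTCTAGAC were in none of the 52 windows and in 0.312% of all regions.

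**Figure D2:**
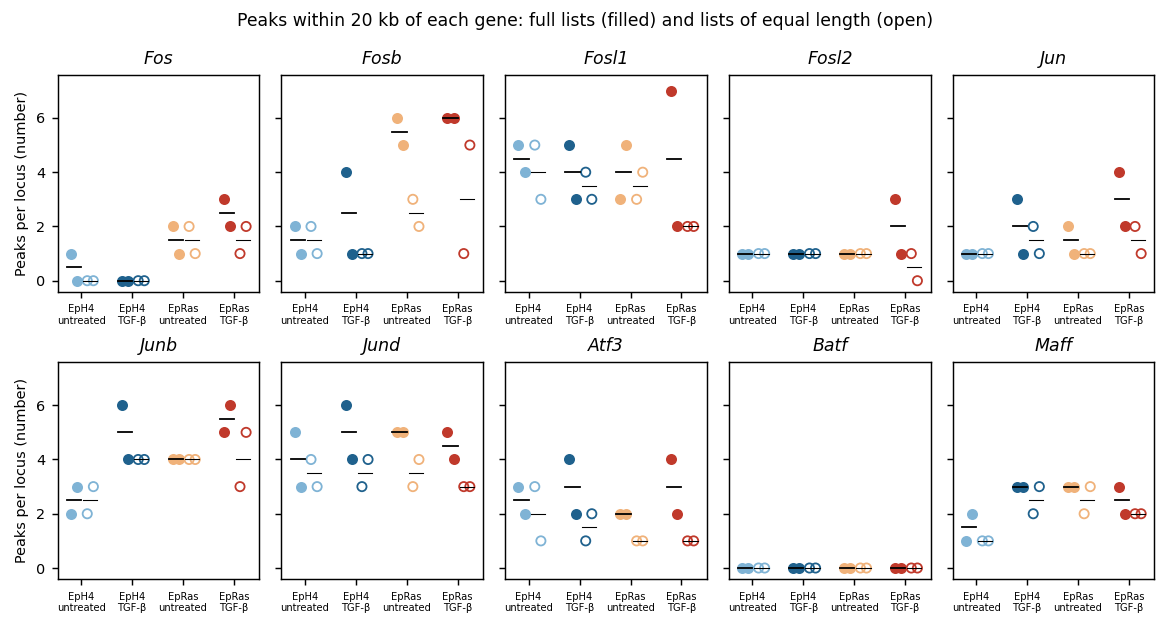
Number of peaks per locus (vertical axis) in each library of the 4 groups, for the 10 genes. Filled points are the full lists, open points the lists of equal length, and horizontal lines the means of 2 libraries. At *Fosb* the 4 EpRas libraries have 5 to 6 peaks and the EpH4 libraries 1 to 4 in the full lists, and the lines overlap in the lists of equal length.

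To ask whether H-Ras went with a change at these loci, the 4 EpRas libraries were compared with the 4 EpH4 libraries. The 10 loci together held 21, 17, 32 and 19 peaks in EpH4 (untreated, then with TGF-β) and 28, 27, 40 and 27 in EpRas. The means were 30.5 ± 6.35 in EpRas and 22.2 ± 6.7 in EpH4 (SD, n = 4), a ratio of 1.37, and the same ratio over all gene loci with a peak was 1.35. In the lists of equal length the means were 19.5 ± 2.38 and 17.5 ± 2.38, and their difference was less than 1 SD. Per 10000 peaks of a list the loci held from 13.0 (Wilson 95% interval 8.11 to 20.8) to 19.6 (13.5 to 28.5), intervals that overlapped and cover counting error only.

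Each class of regions had a higher mean in EpRas in the full lists. No test was made between the classes. Own promoter regions called per library were 10.2 ± 3.4 in EpRas (7 to 15) and 6.25 ± 1.5 in EpH4 (5 to 8), flanking regions 14.0 ± 2.45 and 10.2 ± 4.99, and promoter regions of neighbouring genes 6.25 ± 1.26 and 5.75 ± 0.957 (SD, n = 4). At equal list length they were 6.25 ± 1.26 and 5.5 ± 0.577, 9.0 ± 1.83 and 7.25 ± 2.06, and 4.25 ± 0.5 and 4.75 ± 1.26. Of the 16 own promoter regions, 11 (68.8%) were called in more EpRas than EpH4 libraries, 4 in equally many and 1 in fewer, and 51.4% of all promoter regions were called in more EpRas libraries. At equal list length this excess narrowed, with 6 called in more EpRas libraries (37.5%, against 29.5% of all promoter regions), 5 in equally many and 5 in fewer. Those in equally many included regions that no library then called. For flanking regions the share was 15 of 25 (60.0%), against 58.6% of all distal regions, and at equal list length 10 (40.0%), against 25.2%, with 5 in fewer. The promoter regions of a gene share its locus and are not independent of each other.

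**Figure D3:**
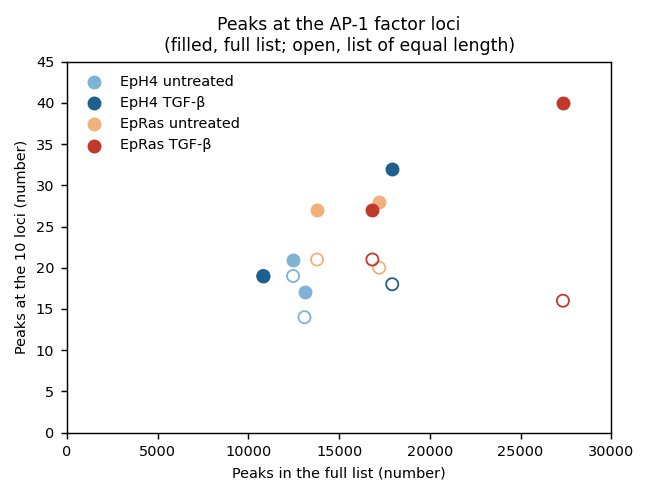
Peaks at the 10 loci together (vertical axis, number) against the length of each library's full list (horizontal axis, number of peaks), for the 4 groups. Filled points count the full list and open points the list of equal length. EpRas with TGF-β replicate 1, the longest list, has 40 peaks in full and 16 at equal length.

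At the level of single loci, *Fosb* alone had more peaks in each EpRas library than in any EpH4 library. It held 2 and 1 peaks in untreated EpH4, 4 and 1 in EpH4 with TGF-β, 6 and 5 in untreated EpRas and 6 and 6 in EpRas with TGF-β. The difference of means was 3.75 peaks (5.75 ± 0.5 against 2.0 ± 1.41), with p = 0.0286 in an exact permutation test, two-sided, the smallest p that 4 libraries against 4 allow. The Benjamini-Hochberg adjusted p over all 15756 gene loci was 0.593. At an unadjusted p under 0.05, *Fosb* was the 1 AP-1 locus, where 4.82% of all gene loci passed, and 0 passed after adjustment. One of 9 loci with a peak is to be read against 4.27% of all gene loci that were higher in EpRas in the same way, and 0.552% were higher in EpH4, none of them an AP-1 locus. In the lists of equal length *Fosb* held 2, 1, 1 and 1 peaks in EpH4 and 3, 2, 1 and 5 in EpRas, which overlapped (difference 1.5, exact permutation p = 0.257).

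The additional *Fosb* peaks lay on both sides of the gene. The region 6.86 kb upstream was the best scored, at 46.6, 0, 60.9 and 46.0 in EpH4 and 87.3, 85.3, 80.5 and 51.4 in EpRas. The difference was 37.8 percentile points (exact permutation p = 0.0571), as EpRas with TGF-β replicate 2 fell within the EpH4 range. Regions 10.1 kb and 17.3 kb upstream, in an exon and an intron of the non-coding gene *D830036C21Rik*, were called in all 4 EpRas libraries and in EpH4 with TGF-β replicate 1, at 29.7 and 36.6 there. In EpRas they ranged from 13.7 to 65.1 and from 2.26 to 76.7. In the lists of equal length each was called in 2 libraries, both of EpRas. Beyond the 3′ end, the regions at 8.38 kb, near the start of *Gm26802*, and at 13.6 kb, in an untranslated region of *Rtn2*, were called in EpRas alone. The first had 26.6 in EpRas untreated replicate 1 and 4.79 and 1.44 with TGF-β (exact permutation p = 0.143). The second had 18.1 in EpRas untreated replicate 1 and 61.2 in EpRas with TGF-β replicate 2 (exact permutation p = 0.429). At equal list length these regions beyond the 3′ end were called in 0 and 1 libraries. At the region 0.894 kb inside the gene the lines overlapped. It had 65.4 and 93.6 in untreated EpH4, no call in EpH4 with TGF-β, and 72.4, 12.9, 34.0 and 47.7 in EpRas.

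**Figure D4:**
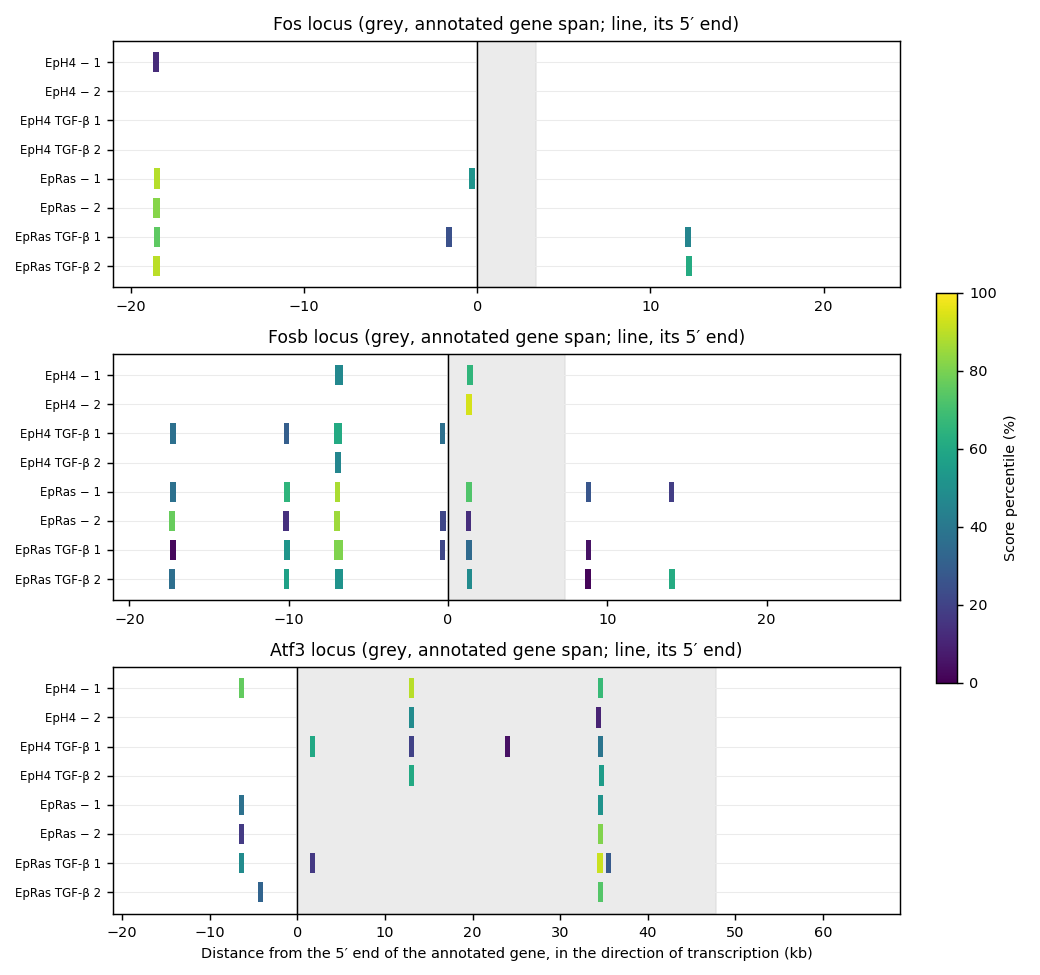
Peaks of the 8 libraries (rows) at the *Fos*, *Fosb* and *Atf3* loci, against distance from the 5′ end of the annotated gene in kb (horizontal axis). Each bar is a peak, narrow ones drawn at a minimum width, colour is the score percentile within its list, and grey marks the gene span. At *Fos* the EpRas libraries share the peak 18.5 kb upstream, and at *Atf3* the EpH4 libraries share a peak 13.0 kb inside the gene.

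The *Fos* locus had 1 flanking region that every EpRas library shared. It held 1, 0, 0 and 0 peaks in EpH4 and 2, 1, 3 and 2 in EpRas, with means of 0.25 ± 0.5 and 2.0 ± 0.816 (exact permutation p = 0.0571, adjusted p = 0.785). The libraries touched at 1 peak, and in the lists of equal length, with 0 peaks in each EpH4 library and 2, 1, 1 and 2 in EpRas, they did not (exact permutation p = 0.0286). In the full lists, regions called in 1 or 2 EpRas libraries and in no EpH4 library added to the difference. The region 18.5 kb upstream (chr12:85455193-85455606, intergenic) was called in all 4 EpRas libraries. Its percentiles were 88.7 and 81.9 in untreated EpRas and 75.0 and 89.7 in EpRas with TGF-β, while in EpH4 it was called in untreated replicate 1 alone, at 12.3. EpRas libraries were therefore all far above EpH4 libraries, by 80.7 percentile points (83.8 ± 6.79 against 3.07 ± 6.14, SD, n = 4, exact permutation p = 0.0286). Adjusted over all 37230 regions by Benjamini-Hochberg, p was 0.463. In the lists of equal length the region was called in 4 EpRas and 0 EpH4 libraries.

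This region was 1 of 52 whose EpRas percentiles lay above all EpH4 percentiles, against 4.68% of all regions and 9.77% of the regions on chromosome 12. Together with an *Atf3* region, 2 of the 52 passed an exact permutation p of 0.05, as did 6.17% of all regions, and 0 of any passed after adjustment. Chromosome 12 held 3.27 ± 0.165% of the peaks in EpRas and 1.78 ± 0.306% in EpH4 (SD, n = 4), without overlap of the lines. The part of this difference in the *Fos* result was not tested. For *Fosb*, on chromosome 7, the shares were 5.78 ± 0.194% and 4.73 ± 0.302%, and 5.01% of the gene loci and 5.85% of the regions on that chromosome were higher in EpRas. Their part in the *Fosb* result was not tested either. The window of the *Fos* region is printed because it held none of the AP-1, CRE, CArG, ETS (CCGGAA or ACGGAA) or RUNX (TGTGGTT) letters searched.
Fos upstream region, chr12:85455250-85455549: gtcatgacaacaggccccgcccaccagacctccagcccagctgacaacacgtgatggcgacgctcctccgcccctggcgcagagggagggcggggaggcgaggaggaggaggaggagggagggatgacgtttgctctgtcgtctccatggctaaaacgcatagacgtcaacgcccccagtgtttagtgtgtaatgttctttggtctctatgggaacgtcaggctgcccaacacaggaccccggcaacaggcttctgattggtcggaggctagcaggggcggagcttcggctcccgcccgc

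*Atf3* showed the opposite order at a single flanking region. The region 13.0 kb inside the gene from its outer start site (chr1:191204858-191205178, in an intron) had percentiles of 89.3 and 47.8 in untreated EpH4 and 19.7 and 60.3 in EpH4 with TGF-β, and was called in no EpRas library. The EpRas minus EpH4 difference was -54.3 percentile points (0 against 54.3 ± 28.9, exact permutation p = 0.0286, adjusted p = 0.463). Of the 52 regions this was the only one called in every library of 1 line and none of the other, a pattern that 0.752% of all regions showed for EpH4 and 1.98% for EpRas. It was also the 1 region whose EpH4 percentiles lay above all EpRas percentiles (1.49% of all regions). In the lists of equal length EpH4 with TGF-β replicate 1 no longer had it, which left 3 EpH4 libraries with a call (exact permutation p = 0.143). With peaks below the median raw score of all lists removed, the difference was -19.0 percentile points (exact permutation p = 1.0). Other *Atf3* regions did not follow it, and the number of peaks at the locus was 3, 2, 4 and 2 in EpH4 and 2, 2, 4 and 2 in EpRas. Chromosome 1 held slightly more of the peaks in EpRas (7.87 ± 0.254% against 7.38 ± 0.0881%), the other way from the region, and 0.801% of its regions were higher in EpH4 in this way. Its window held none of the same letters.
Atf3 intronic region, chr1:191204868-191205167: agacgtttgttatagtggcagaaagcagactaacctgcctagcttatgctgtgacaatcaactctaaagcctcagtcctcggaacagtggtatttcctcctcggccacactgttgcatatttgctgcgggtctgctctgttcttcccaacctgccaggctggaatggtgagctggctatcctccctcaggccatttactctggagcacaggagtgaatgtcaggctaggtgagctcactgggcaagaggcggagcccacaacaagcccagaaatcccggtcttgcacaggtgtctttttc

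At the other loci the lines overlapped. *Junb* held 2, 3, 6 and 4 peaks in EpH4 and 4, 4, 5 and 6 in EpRas (difference 1.0, exact permutation p = 0.486), *Jund* 5, 3, 6 and 4 against 5, 5, 5 and 4 (0.25, p = 1.0), and *Jun* 1, 1, 3 and 1 against 2, 1, 4 and 2 (0.75, p = 0.543). *Fosl1* had the same mean of 4.25 in both lines, with 5, 4, 5 and 3 peaks in EpH4 and 3, 5, 7 and 2 in EpRas. *Fosl2* had 1 peak in every library other than EpRas with TGF-β replicate 1, which had 3. *Maff* had 1, 2, 3 and 3 against 3, 3, 3 and 2 (0.5, exact permutation p = 0.714). Within the *Maff* locus the promoter region of *Pla2g6*, a phospholipase gene, had 30.4, 2.9, 60.4 and 3.5 in EpH4 and 84.4, 52.4, 77.3 and 93.1 in EpRas (52.5 percentile points, exact permutation p = 0.0571). The lines overlapped there in 1 pair of libraries.

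The 4 libraries with TGF-β were compared with the 4 untreated ones to ask about the cytokine across both lines. The 10 loci held 29.5 ± 8.81 peaks with TGF-β and 23.2 ± 5.19 without (SD, n = 4), a ratio of 1.27 against 1.2 for all gene loci, and at equal list length both means were 18.5. No AP-1 locus separated the treatments, as 0.394% of gene loci did with more peaks under TGF-β and 0.0444% with fewer. *Junb* came closest, with 2, 3, 4 and 4 peaks untreated and 6, 4, 5 and 6 with TGF-β (means 3.25 ± 0.957 and 5.25 ± 0.957, exact permutation p = 0.0857). The values met at 4 peaks, between untreated EpRas and EpH4 with TGF-β replicate 2, and the test did not take account of the line. Within each line both treated libraries held more peaks than both untreated ones. In the lists of equal length the difference was 0.75. There EpH4 held 2 and 3 peaks untreated and 4 and 4 with TGF-β, and EpRas 4 and 4 untreated and 3 and 5 with TGF-β. Without EpH4 with TGF-β replicate 2 the *Junb* locus did separate the treatments. In the exact permutation test for TGF-β, 0 AP-1 loci passed an unadjusted p of 0.05, which 0.438% of gene loci did, and 0 passed after adjustment.

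No AP-1 region was called in all treated and no untreated libraries or the reverse, where 0.32% and 0.0188% of all regions were. One region of the 52 separated the treatments by score. It lay 12.5 kb beyond *Junb* at the promoter of *Rnaseh2a* (chr8:84965996-84966342), the gene for the catalytic subunit of ribonuclease H2. Its percentiles were 75.6 and 68.7 in untreated EpH4 and 89.4 and 66.0 in untreated EpRas, and 93.5 and 96.3 in EpH4 and 98.6 and 96.8 in EpRas with TGF-β. All treated libraries were above all untreated ones, by 21.4 percentile points (96.3 ± 2.15 against 74.9 ± 10.5, exact permutation p = 0.0286, adjusted p = 1.0), and 1.21% of all regions were higher with TGF-β in this way. No AP-1 region was lower in all treated libraries, where 0.145% of all regions were. In the full lists, of the flanking regions 17 of 25 (68.0%) were called in more treated than untreated libraries, against 56.3% of all distal regions, and of the own promoter regions 8 of 16 (50.0%), against 39.9% of all promoter regions. At equal list length the counts were 7 of 25 (28.0%, against 25.0%), with 4 in fewer treated libraries, and 4 of 16 (25.0%, against 21.4%), with 6 in fewer.

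Within a line the treatments could only be described, since 2 libraries against 2 allow no p below 0.333. In EpRas, 2 regions were called in both treated and no untreated library, against 7.64% of all regions, and none showed the reverse, which 0.927% of all regions did. One lay 12.2 kb downstream of the *Fos* start site (chr12:85485950-85486238), at 45.7 and 61.2, and was called in no EpH4 library either. Of all regions 4.21% were likewise called in both of these libraries alone. The other lay 16.6 kb downstream of the *Jun* start site, at 24.4 and 8.89, and also in EpH4 with TGF-β replicate 1 at 12.6, so that all its calls came from treated libraries. Neither held in the lists of equal length, where the *Fos* region was called in EpRas with TGF-β replicate 2 alone and the *Jun* region in no library. In EpH4, 3 regions were called in both treated and no untreated library (3.27% of all regions), 18.7 kb beyond *Junb*, 19.5 kb beyond the *Fosl1* start site near *Ctsw*, and 13.0 kb upstream of *Maff*. The *Junb* one, in a coding exon of *Rnaseh2a*, was called in EpH4 with TGF-β alone, at 10.1 and 13.7, as were 0.86% of all regions. At equal list length 0 regions in EpH4 were called in both treated and no untreated library (2.34% of all regions). No AP-1 region was specific to the untreated libraries of EpH4 or EpRas in this sense, as 0.424% and 0.451% of all regions were.

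The region 12.2 kb downstream of *Fos* held a CArG box and, a short way before it, the ETS letters on the other strand. Boxes of this kind beside an ETS site are known as binding sites of serum response factor with its ternary complex partners, which are targets of kinases downstream of Ras. It was the only 1 of 25 flanking windows with a CArG box (4.0%, against 1.84% of all distal regions). The window is printed with both in capitals, and a further ETS match stands near its start.
Fos downstream region, chr12:85485944-85486243: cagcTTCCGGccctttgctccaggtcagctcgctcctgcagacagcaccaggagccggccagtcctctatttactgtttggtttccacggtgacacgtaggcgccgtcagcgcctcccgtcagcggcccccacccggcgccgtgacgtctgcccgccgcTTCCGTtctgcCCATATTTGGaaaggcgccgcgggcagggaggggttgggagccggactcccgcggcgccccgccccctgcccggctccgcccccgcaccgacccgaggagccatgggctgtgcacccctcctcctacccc

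The reverse in EpH4, called in both untreated libraries and in neither treated one, was seen at 1 region (1.68% of all regions), the one 0.894 kb inside *Fosb*. The effect of TGF-β on the number of peaks per locus was also compared between the lines by permuting line labels within each treatment. The difference of effects ran from -2.0 peaks at *Maff* to 1.5 at *Fos*, and no p from this exact permutation test was below 0.167. With 36 assignments the smallest possible p is 0.0556, so the design could not have shown such a difference at 0.05.

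Between the lines without TGF-β, 3 regions were called in both EpRas and in neither EpH4 library (6.46% of all regions), those 10.1 kb and 17.3 kb upstream of *Fosb* and 13.0 kb upstream of *Maff*. With TGF-β there were 5 (11.6%), 18.5 kb upstream and 12.2 kb downstream of *Fos*, the region inside *Fosb*, the one 8.38 kb beyond its start site, and the *Junb* start site. The shares of the 52 were 5.77% and 9.62%, no higher than those of all regions. At equal list length there were 2 without TGF-β, the *Fos* upstream and the *Maff* region (3.62% of all regions), and 1 with it, the *Fos* upstream region (4.51%). In the full lists the reverse was seen at 1 region without TGF-β (3.45%), the *Atf3* intronic one. With TGF-β it was seen at 2 (2.78%), the same one and the one 18.7 kb beyond *Junb*. At equal list length it was seen at 2 without TGF-β (3.9%), the *Atf3* one and one 11.6 kb beyond the *Jund* start site. With TGF-β it was then seen at 1 (4.2%), 3.41 kb upstream of *Jund*. The comparisons with and without TGF-β use different libraries, and *Fosb* contributed different regions to each.

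Other genes of the pathway were counted by the same measure. Of 21 further AP-1 and bZIP partner genes, all with a peak in at least 1 library, 1 had more peaks in each EpRas than in any EpH4 library, where 4.27% of all gene loci did, and 0 had fewer (0.552%). This was *Nfe2l1*, which encodes a stress-responsive partner of small Maf proteins, with 2, 2, 2 and 1 peaks in EpH4 and 3, 3, 4 and 3 in EpRas (difference 1.5, exact permutation p = 0.0286, adjusted p = 0.593). None of the 14 kinases and factors upstream of *Fos* and *Jun*, and none of 13 other immediate-early genes, separated the lines, and no gene of the 3 lists separated the treatments, as 0.394% of gene loci did upward and 0.0444% downward. The median EpRas minus EpH4 differences were 0.75, 0.25 and 0.5 peaks for the 3 lists, beside 0.25 for all gene loci with a peak.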

How the data were processed

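FAIRE-seq was measured in 8 libraries. According to the study's methods and the submitters' processing notes, the authors trimmed Ion Proton reads to 36 bases, mapped them to mm10 with Bowtie2 and called peaks per library with MACS2 2.0.9, without pooling. The deposited files hold peak positions and a score of unstated scale, so the score entered as a rank within its list. The stricter score alternative is the exception. It kept the peaks at or above 15.5, the median raw score of all lists together, although lists may differ in scale. Whether a control entered peak calling, the handling of duplicates, and depth were not given in the sources used here. Groups came from the sample labels.

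Peaks of the 8 lists were merged (overlap of 1 bp) and assigned to gene loci of GENCODE vM21 (basic set) on GRCm38.p6, the build of mm10. Positions are 1-based. Means of 4 against 4 libraries were compared by exact permutation tests, two-sided, over 70 assignments (smallest p 0.0286), for all 15756 protein-coding gene loci with a peak and all 37230 regions, with Benjamini-Hochberg adjustment over each. P-values measure only the spread between these libraries, and the code was tested on simulated data. Motifs were searched on both strands of 300-bp windows. RefSeq promoter sequences of GRCm38 (250 bases before to 50 after the start) matched 9 of 10 genes. The members and lists were chosen with earlier results of these data known. The text names every own promoter region and, of the flanking regions, those separating the lines or treatments, those specific to 1 group, and the best scored, and further regions were named after their values were seen. Python 3.11.15, NumPy 2.4.6, pandas 2.3.3, SciPy 1.17.1, Matplotlib 3.10.9 and pysam 0.24.0 were used. Alternatives were equal list lengths, a stricter score, flanks of 10 and 50 kb, promoters within 1 kb, 50% overlap, a replicate block and leaving out each library.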

Additional observations from a re-analysis of the deposited data

How the results depend on the processing

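With the same number of peaks per list, a score limit, flanks of 10 or 50 kb or 50% overlap, the sum of peaks at the 10 loci stayed higher in EpRas, and it rose from 8.25 to 17.2 peaks with flanks of 50 kb. The number of loci separating the lines, 1 by main settings, was 2 (*Fos* and *Fosb*) with the stricter score, 2 in the replicate block and 0 with flanks of 50 kb, and those past an exact p of 0.05 numbered 2, 0 and 0. With flanks of 50 kb, 2 regions were called in every library of 1 line only. Regions separated by score, 2 by line, numbered 1 with the stricter score, which lost *Atf3*. Promoters within 1 kb left 11 own promoter and 32 flanking regions. The flank and overlap settings were not run for the scores of regions.

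The replicate numbers did not pair the libraries (correlations of deviations -0.00377 to 0.0305). The replicate block allows no p under 0.0556, so 0 regions passed for the line or for TGF-β, with differences of 3.75 peaks at *Fosb* and 80.7, -54.3 and 21.4 percentile points at the *Fos*, *Atf3* and *Rnaseh2a* regions as before.

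Leaving out each library gave 5.08 to 11.5 peaks for the line sum and 2.75 to 9.75 for TGF-β. Loci separating the lines numbered 1 to 2 (2 without EpH4 untreated replicate 1 or EpRas untreated replicate 2, with *Fos* added) and the treatments 0 to 1 (1, *Junb*, without EpH4 with TGF-β replicate 2). Loci past an exact p of 0.05 numbered 0 to 1 in each contrast, and 0 by line without EpRas untreated replicate 1 or either EpRas library with TGF-β. Regions called in 1 line only numbered 1 to 3 (2 without EpH4 untreated replicate 1, 3 without EpH4 with TGF-β replicate 1 or EpRas untreated replicate 2) and in 1 treatment only 0 to 1. Regions past p by line numbered 1 to 5 (5 without EpH4 with TGF-β replicate 1) and by TGF-β 0 to 1 (0 without EpH4 with TGF-β replicate 1 or either EpRas library with TGF-β). Leaving out a library reversed neither sum, nor the differences at the *Fosb* locus and the *Fos*, *Atf3* and *Rnaseh2a* regions. Equal list length did reverse some class means. Promoter regions of neighbouring genes went to 4.25 in EpRas and 4.75 in EpH4, from 6.25 and 5.75. Own promoter regions went to 5.5 with TGF-β and 6.25 untreated, from 8.75 and 7.75.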
